A study of Mus musculus with 14 samples.

Results

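The regions described here are the m6A peaks that were called in Mettl3-cKO hepatocytes and that share no base with any peak called in WT hepatocytes. They were found by comparing the 2 hepatocyte peak lists position by position, and they number 11171 of the 17277 peaks of the cKO list, or 64.7% (95% Wilson interval 63.9% to 65.4%, counting error only). The 6 m6A immunoprecipitation (IP) libraries of the series hold 40679 peaks together. The 11171 cKO-only peaks lie in 6426 genes, out of 8150 genes with any peak in the cKO list. The remaining 6106 cKO peaks overlap a WT peak, and 11073 peaks of the WT list overlap no cKO peak.

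The study profiled m6A by MeRIP-seq, in which fragmented RNA is pulled down with an antibody against the mark and sequenced beside an input library of the same RNA. The cKO mice were male C57BL/6 mice aged 8 weeks, carrying Alb-Cre and Mettl3 fl/fl, an allele that loses exons 2 and 3 of Mettl3 where Cre is active. The WT mice had the same strain, sex and age, and the methods give them Alb-Cre without a floxed allele and allow heterozygous littermates as controls as well. Hepatocytes gave 1 IP and 1 input library per genotype, and whole liver gave 2 of each (replicates 2 and 3). The albumin promoter drives Cre in hepatocytes, so other liver cells of cKO mice keep Mettl3. Hepatocytes were obtained by collagenase perfusion and slow centrifugation. Nothing states whether 1 mouse or several went into a library.

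N6-methyladenosine is the most abundant internal mark of mammalian mRNA. A nuclear complex around METTL3 and METTL14 writes it, mainly where an adenosine stands in a GGAC-like context. FTO and ALKBH5 can remove it, and YTH domain and IGF2BP proteins read it and change how long the transcript lasts or how well it is translated. In most tissues the mark lies in long internal exons and around the stop codon. Liver holds hepatocytes beside Kupffer cells (resident macrophages), sinusoidal endothelium, stellate cells and bile duct cells, each with transcripts of its own.

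The m6A core sequence stood inside many cKO-only peaks, and the stretches below show it where the results turn on the gene. They are read from mm10 on the strand of the transcript, 5′ to 3′, with GGAC in capitals and 10 bases on each side. Each is the GGAC nearest the centre of the gene's cKO-only peak with the highest enrichment.
Tnpo2: attgcctgctGGACgctgagccgc
Clec4f: agcacagtatGGACaacattagtg
Cd5l: tcagggcaaaGGACccatctggat
Marco: aatgagtgggGGACaatttgtgat
Mrc1: agcgctgcgtGGACgctctaagtg
Stab2: aaccaatgttGGACaagccctgga
Kdr: agttccttccGGACtcttacgtgt
Notch1: aggaagctaaGGACctcaaggcac
Noc2l: agctcaccaaGGACtgaaagaaga
Kmt2a: caaaatgagtGGACacatgtgaac
Clec4f, Cd5l, Marco and Mrc1 are genes of Kupffer cells, Stab2 and Kdr of sinusoidal endothelium, and Noc2l and Kmt2a are used by most cells. The Clec4f stretch lies in a peak at chr6:83652359-83653300 that covers the whole of coding exon 4 of 7. The Marco peak (chr1:120476554-120476730, exon 16 of 17), the Mrc1 peak (chr2:14238126-14238527, exon 2 of 30), the Cd5l peak (chr3:87367541-87367879, exon 4 of 6), the Stab2 peak (chr10:86954146-86954271, exon 15 of 69) and the Noc2l peak (chr4:156246677-156246763, exon 18 of 19) are each as long as the coding exon that holds them. The Notch1 peak lies in the coding part of the last exon (chr2:26460372-26460976), and the Kdr peak in the last exon in the 3′ UTR (chr5:75932986-75934487).

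Several measurements of the libraries bear on every result below. The hepatocyte input labelled WT, not the one labelled cKO, was rich in genes of other liver cell types. The 20 listed Kupffer cell genes summed to 40.4 FPKM (fragments scaled for transcript length and depth) in the input labelled cKO and 830 FPKM in that labelled WT. The 18 endothelial genes summed to 49.0 FPKM in the input labelled cKO and 440 FPKM in that labelled WT. The 20 hepatocyte identity genes summed to 34284 FPKM in the input labelled cKO and 16666 FPKM in that labelled WT. Over all genes the FPKM summed to 339695 in the input labelled cKO and 190290 in that labelled WT. The total was thus also higher in the input labelled cKO, so the hepatocyte sums alone do not show a larger share of hepatocyte RNA there. The Kupffer cell and endothelial sums ran against the total. Mettl3 itself had 2.91 FPKM in the hepatocyte input labelled cKO and 3.44 in that labelled WT, and 26.3 and 14.7 FPKM in cKO livers against 8.43 and 10.6 FPKM in WT livers, so its level was not lower in the libraries labelled cKO in liver. A level over the whole gene does not check the deleted exons. The estimated depth of the inputs was 3557668 fragments for the hepatocyte input labelled cKO and 1733496 for that labelled WT, and 3251205 to 5861307 in the livers. No source used here gives the sequencing depth behind the IP peaks. In bulk RNA, fewer cells of a type and less RNA per cell cannot be told apart.

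The authors' peak caller gave the cKO-only peaks lower values than the other hepatocyte peaks, which is a description, since the same lists chose them. Their fold enrichment (IP over input) had a median of 14.6 and quartiles of 8.91 and 27.0, against 16.3 for cKO peaks that overlap a WT peak and 25.1 for WT-only peaks. Their median score, −10 log10 of the p-value, was 277, against 516 for overlapping cKO peaks and 488 for WT-only peaks. Their median width was 193 bp, against 311 bp for overlapping cKO peaks and 192 bp for WT-only peaks. The false discovery rate (FDR) of the caller had a median of 12.1% for cKO-only peaks, 12.9% for the overlapping cKO peaks and 1.66% for WT-only peaks, and only 2 of the 11171 cKO-only peaks had an FDR of 5% or less. The fold took only 2479 distinct values over the 11171 peaks, and 5963 of them shared their value with at least 9 others.

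The edge of the rule is narrow. The cKO-only peaks nearest to a WT peak lie in Zfp955a (touching it), Ptbp3 and Taf5l (2 bp away), Baz2a and Ap1ar (3 bp away), with folds between 8.81 and 17.98. The cKO peaks with the smallest overlap lie in Pelp1 and Fdx1l (1 bp) and Ccdc59, G3bp1 and Hmgn1 (2 bp), with folds between 3.89 and 40.5. Within 100 bp of a WT peak lay 169 cKO-only peaks, and within 1 kb 1534.

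Most genes held few cKO-only peaks, and many of these genes had a WT-only peak as well. One cKO-only peak was found in 3819 genes, a pair in 1505 and at least 3 in 1102. In 2898 genes a cKO-only peak and a WT-only peak occurred at different places of the same gene. In 2732 genes every cKO peak was cKO-only and the WT list held no peak at all, and these genes carried 4062 of the 11171 peaks. The other 7109 lay in genes with a WT peak elsewhere or a peak of both lists.

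Long transcripts lead the genes with the most cKO-only peaks. Kcnq1ot1, the long noncoding RNA of an imprinted cluster, held 18 cKO-only peaks among 24 cKO peaks, and 19 WT peaks. The nesprins Syne2 and Syne1, which tie the nucleus to the cytoskeleton, held 17 and 12, and the spectraplakins Macf1 and Dst, which link microtubules and actin, held 16 and 15. Sptbn1, a beta-spectrin, held 12. Among the first 10 genes, 3 are endothelial or macrophage genes: Ptprb (endothelial receptor phosphatase) with 15, Mrc1 (mannose receptor) with 12 and Stab2 (hyaluronan scavenger receptor) with 10. These 3 genes had 3 WT peaks each, while Syne2 and Macf1 had 20 each and Dst 14.

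Of the 10 genes with the highest enrichment, 8 were scarcer in the input labelled cKO. Tnpo2, a nuclear import receptor, was the first exception and had the highest fold of all, 3002.75, in coding exon 13 of 25 (chr8:85050032-85050161), at 4.37 FPKM in the cKO input and 2.35 in the WT input. Clec4f, the Kupffer cell lectin, had 593-fold enrichment at 2.36 FPKM in the cKO input and 89.9 in the WT input. Cd5l, a secreted macrophage protein, had 330-fold enrichment at 4.03 FPKM in the cKO input and 103 FPKM in the WT input. The next genes by fold were Zfp791 (567-fold), Neurl3 (414-fold), the DNA sensor Aim2 (401-fold) and Litaf (385-fold). Nrp2, a co-receptor for semaphorins and VEGF, had 308-fold and the caveolar protein Sdpr 305-fold enrichment. Noc2l, a nucleolar protein, had level inputs and was 316-fold enriched at 4.62 FPKM in the cKO input and 4.39 in the WT input. Over all cKO-only peaks the median fold was 17.98 where the gene was under 1 FPKM in the cKO input, 15.2 at 1 to 5 FPKM, 10.4 at 5 to 20 FPKM and 5.75 from 20 FPKM.

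Grouped by gene list, cKO-only peaks outnumbered WT-only peaks in genes of non-parenchymal cells and were absent from hepatocyte identity genes. Of all cKO peaks in Kupffer cell genes 88.2% were cKO-only, in endothelial genes 89.2% and in stellate cell genes 90.6%, beside 64.7% over all cKO peaks. The 20 Kupffer cell and macrophage genes held 60 cKO-only peaks in 18 genes, against 5 WT-only peaks in 3 genes. The 18 sinusoidal endothelial genes held 66 in 16 genes, against 7 in 5, and the 18 stellate cell and fibroblast genes 29 in 13, against 3 in 3. B, T and NK cell genes held 9 in 6 of 14, neutrophil genes 5 in 4 of 10 and cholangiocyte genes 3 in 3 of 10. None of these 3 lists held a WT-only peak. All 9 cKO peaks of B, T and NK cell genes and all 5 of neutrophil genes were cKO-only (70.1% to 100% and 56.6% to 100%). For cholangiocyte genes the share was 60% (23.1% to 88.2%). The neutrophil and cholangiocyte intervals include the 64.7% over all cKO peaks. The 20 hepatocyte identity genes held 0 cKO-only peaks and 96 WT-only peaks in 19 genes. These counts describe 1 library per genotype and carry no test.

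**Figure D1:**
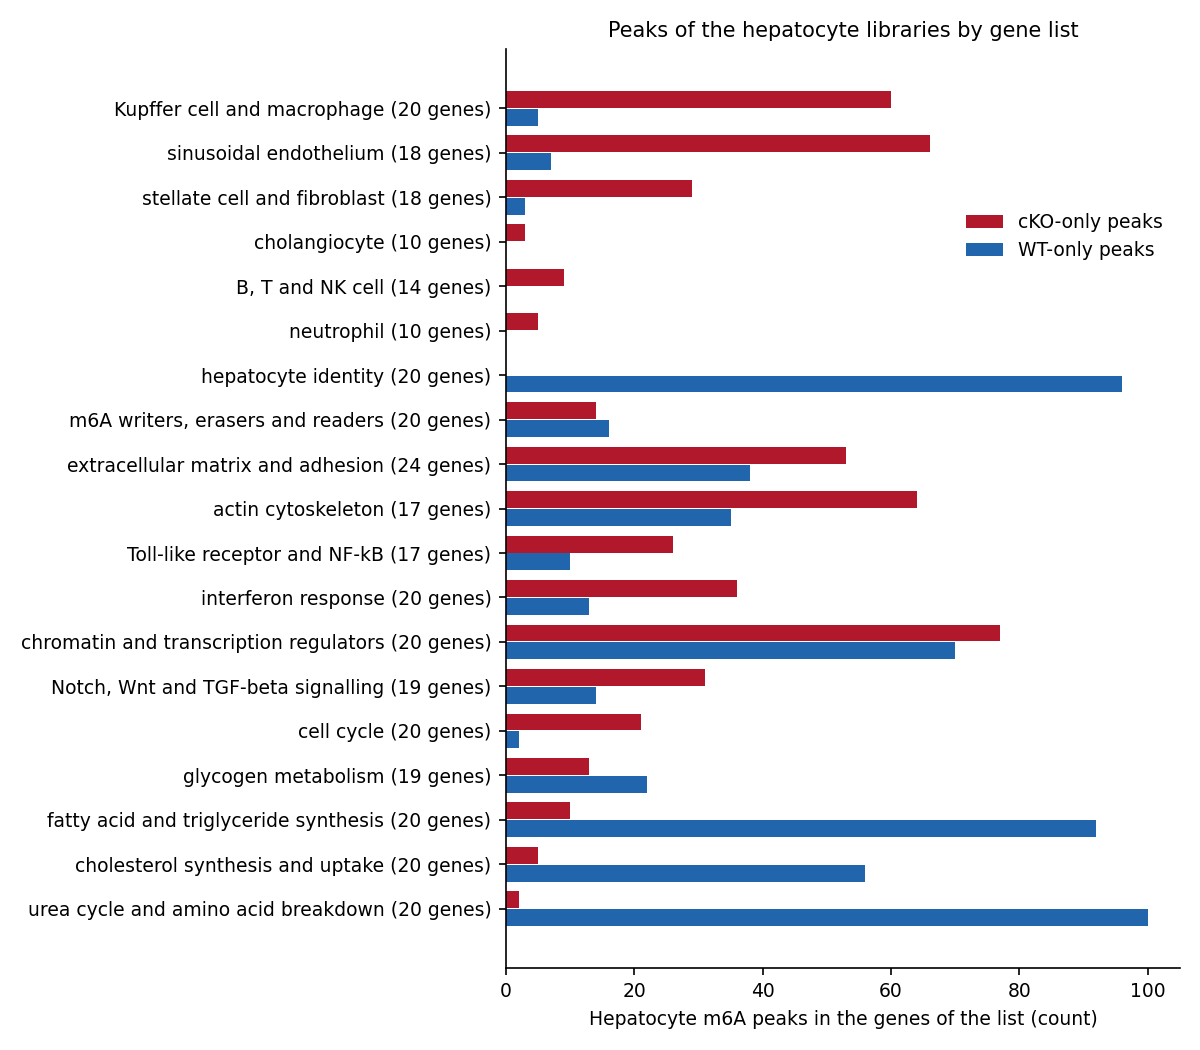
Horizontal bars give the number of cKO-only (red, upper bar) and WT-only (blue, lower bar) hepatocyte m6A peaks in the genes of each list, with the number of listed genes in brackets. Kupffer cell genes hold 60 cKO-only and 5 WT-only peaks, and hepatocyte identity genes hold 0 and 96.

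Among the macrophage genes, Mrc1 held 12 cKO-only peaks (highest fold 149), Cd163, the haemoglobin scavenger receptor, 6 (68.5) and Slc40a1, the iron exporter ferroportin, 6 (48.5). Marco, a scavenger receptor, held 5 (191). All 5 Marco peaks, all 4 Cd5l peaks and the 3 C1qa peaks lay in genes with no WT peak. Cd68 had no peak in either list and Mpeg1 had 1 overlapping peak. Slc40a1 and Hmox1 of this list are used by hepatocytes as well. Among the endothelial genes, Ptprb held 15 (179), Stab2 10 (90.9), Kdr, the VEGF receptor, 8 (117) and the nuclease Dnase1l3 6 (40.5), while Pecam1 and Tie1 held none. Among the stellate cell genes, Rgs5 and Reln held 4 each, and Hgf and Bmp5, both growth factors, 3 each.

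The pathway lists given first ran from above the 64.7% of all cKO peaks to near it. The share of cKO peaks that were cKO-only was 86.9% for matrix and adhesion, 75.6% for Notch, Wnt and TGF-beta, 74.3% for Toll-like receptor and NF-kB, 67.9% for interferon and 67.4% for actin cytoskeleton genes, and all 21 cKO peaks of cell cycle genes were cKO-only. The matrix and adhesion list held 53 cKO-only peaks in 20 of 24 genes, with Vcam1 and the basement membrane collagen Col4a1 at 7 each, Sparc at 5 and Col6a3 at 4, and 38 WT-only peaks in 7 genes. The actin cytoskeleton list held 64 in 16 of 17 genes, led by Ahnak and the kinase Rock1 (8 each), Myh9 (7) and Arhgap31 (6), against 35 WT-only peaks in 11 genes. The interferon list held 36 in 18 of 20 genes, with Oasl2, Irf1 and Irf8 at 4 each and the RNA sensor Ifih1 at 3, against 13 WT-only peaks in 8. The Toll-like receptor and NF-kB list held 26 in 14 of 17 genes, with Tnf at 4 and Tlr8 and Nfkbiz at 3, against 10 in 5. The Notch, Wnt and TGF-beta list held 31 in 15 of 19 genes, with 7 in Notch1 and 6 in the Wnt co-receptor Lrp6, against 14 in 7. The cell cycle list held 21 in 9 of 20 genes, 7 of them in Mki67 and 4 in Cenpe, against 2 in 2.

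The chromatin list held similar numbers of cKO-only and WT-only peaks. Of its cKO peaks 53.1% were cKO-only (45.0% to 61.0%), below the share over all cKO peaks. Its 20 genes held 77 cKO-only peaks in 19 genes, 68 cKO peaks that overlap a WT peak and 70 WT-only peaks in 18 genes. The histone methyltransferases Kmt2c and Kmt2a held 9 and 6, the remodeller Chd7 8 and the Mediator kinase module gene Med13 7. The list of m6A writers, erasers and readers held 14 cKO-only peaks in 9 of 20 genes and 16 WT-only peaks in 11. Of its 37 cKO peaks 37.8% were cKO-only (24.1% to 53.9%), also below the share over all cKO peaks. The nuclear reader Ythdc1, the methyltransferase Mettl16, the eraser Fto and the writer complex subunit Zc3h13 held 2 each, and Mettl3 had no peak in either list.

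The metabolic lists held more WT-only than cKO-only peaks. The share of their cKO peaks that were cKO-only was 15.4% (4.33% to 42.2%) for urea cycle and 43.5% (25.6% to 63.2%) for fatty acid genes. It was 50% (23.7% to 76.3%) for cholesterol and 56.5% (36.8% to 74.4%) for glycogen genes. The intervals for cholesterol and glycogen genes include the 64.7% over all cKO peaks, so by share these lists are not set apart. Urea cycle and amino acid breakdown genes held 2 cKO-only peaks (1 each in Cth and the mitochondrial carrier Slc25a13) and 100 WT-only peaks. Fatty acid and triglyceride synthesis genes held 10, of which 5 in the acetyl-CoA carboxylase gene Acaca and 3 in Agpat2, and 92 WT-only peaks. Cholesterol genes held 5, 1 each in 5 genes including Fdft1, Fdps, Cyp51 and Idi1, and 56 WT-only peaks. Glycogen metabolism genes held 13 in 6 of 19 genes, with 3 each in Phkb and Pygb (brain-type glycogen phosphorylase) and 2 in Gsk3b, and 22 WT-only peaks. None of the 4 genes that the study followed had a cKO-only peak: Gys2 and Mlxipl had 1 cKO peak each and Egfr 2, all overlapping a WT peak, and Fasn had none, while these genes had 3, 5, 23 and 11 WT peaks.

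The Gene Ontology terms in the authors' files were counted as well. Of the genes with cKO-only peaks and no WT peak, 3.49% carried the term cell adhesion, against 0.731% of genes with WT-only peaks and no cKO peak. Signal transduction was carried by 5.19% of the cKO-only genes, against 2.53% of the WT-only genes. Immune system process was carried by 3.00% of the cKO-only genes, against 1.97% of the WT-only genes. Over all genes with a peak in either list, cell adhesion had 1.94%, signal transduction 3.68% and immune system process 1.94%. Among all genes with a cKO-only peak these terms had 2.47%, 4.18% and 1.97%, so immune system process stood near the share over all genes with a peak. Several metabolic terms and translation ran the other way. Oxidation-reduction process was carried by 3.18% of the cKO-only genes, against 8.77% of the WT-only genes. Lipid metabolic process was carried by 2.24% against 4.72%, and translation by 1.61% against 3.37%. Over all genes with a peak in either list these terms had 4.87%, 3.08% and 2.29%. The terms shown were chosen with these values in view and were not tested.

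The hepatocyte inputs show how abundant each gene was in the RNA that entered the IP, and the peak caller used the same libraries as its baseline. Of 4792 genes with a cKO-only peak and a mean of at least 1 FPKM, 835 (17.4%) were lower by 2-fold or more in the cKO input and 787 (16.4%) higher, with 1 FPKM added to both values, against 13.2% lower and 23.6% higher over all 9550 genes. Which side was larger turned with the setting: with 0.1 FPKM added in place of 1, 1018 were lower and 1140 higher, and with median-ratio scaling, chosen after the data were seen, 1057 were lower and 400 higher. Bins and folds between inputs below also add 1 FPKM, which shrinks the difference of scarce genes. The median log2 difference was 0.25, against 0.41 over all genes. The 1542 genes with cKO-only peaks and no WT peak stood further off, with 35.7% lower and 9.21% higher by these limits and a median of −0.30. The peaks were called against these inputs, so the shares are a description.

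The share of cKO peaks that had no WT counterpart followed the input. It was 83.8% (1807 of 2157 peaks) where the gene was lower by 2-fold or more in the input labelled cKO, 67.5% in those 1.2 to 2-fold lower and 59.8% within 1.2-fold. It was 57.4% in genes 1.2 to 2-fold higher and 50.04% (1245 of 2488) where it was higher by 2-fold or more. The median fold of the cKO-only peaks went the same way through these 5 bins, 21.4, 14.7, 13.5, 12.2 and 8.79. Whether the input sets the calls was not tested.

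**Figure D2:**
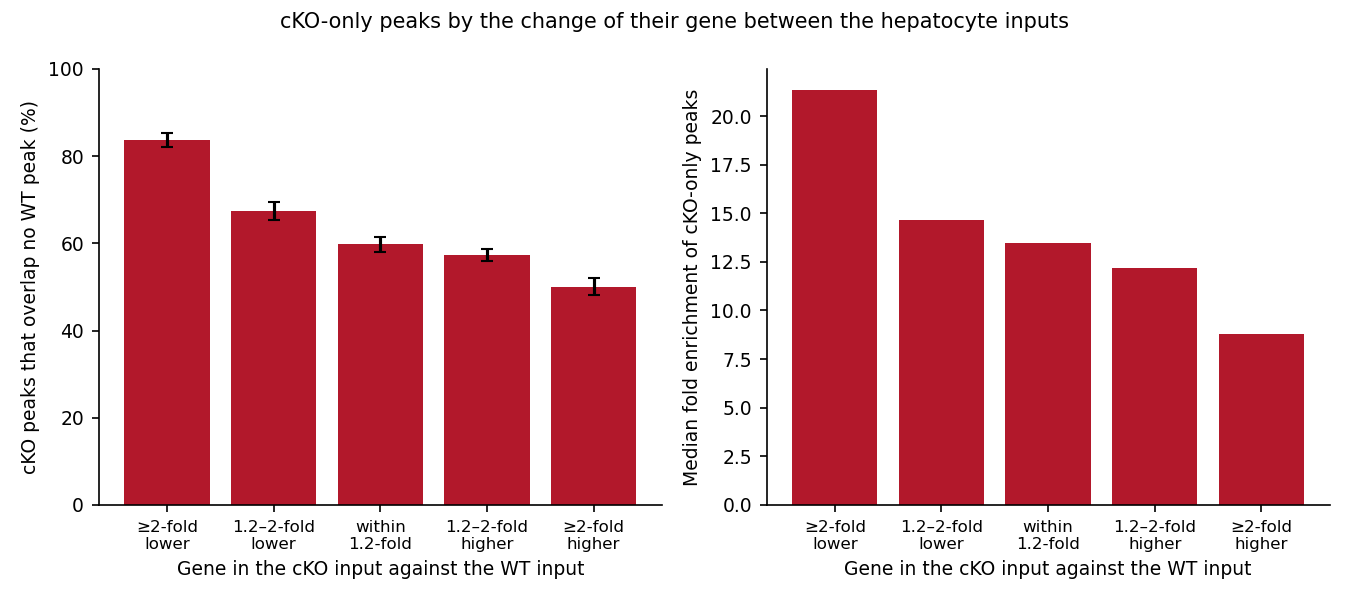
The left bars give the share of cKO hepatocyte peaks that overlap no WT peak (%, with 95% Wilson intervals), and the right bars the median fold enrichment of those peaks, for genes binned by their FPKM in the input labelled cKO against the one labelled WT. The share runs from 83.8% to 50.04% and the median fold from 21.4 to 8.79 between the outer bins. The bins use the deposited FPKM without median-ratio scaling.

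The listed cell type genes lay almost wholly on 1 side. All 19 measured Kupffer cell genes, all 18 endothelial genes and 11 of 12 stellate cell genes with at least 1 FPKM on average were lower by 2-fold or more in the cKO input. C1qb, a complement subunit of macrophages, had 1.29 FPKM in the cKO input and 83.9 FPKM in the WT input. Marco had 0.249 FPKM in the cKO input and 32.3 in the WT input. Stab2 had 2.96 FPKM in the cKO input and 41.9 in the WT input, and Dcn, the stellate cell proteoglycan decorin, 4.30 in the cKO input and 37.1 in the WT input. By the deposited FPKM, none of the 20 chromatin genes was 2-fold lower on this scale, and Chd7 (8 cKO-only peaks) and Chd3 (3) were 2-fold higher. The part of cell content in the peak lists was not tested.

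**Figure D3:**
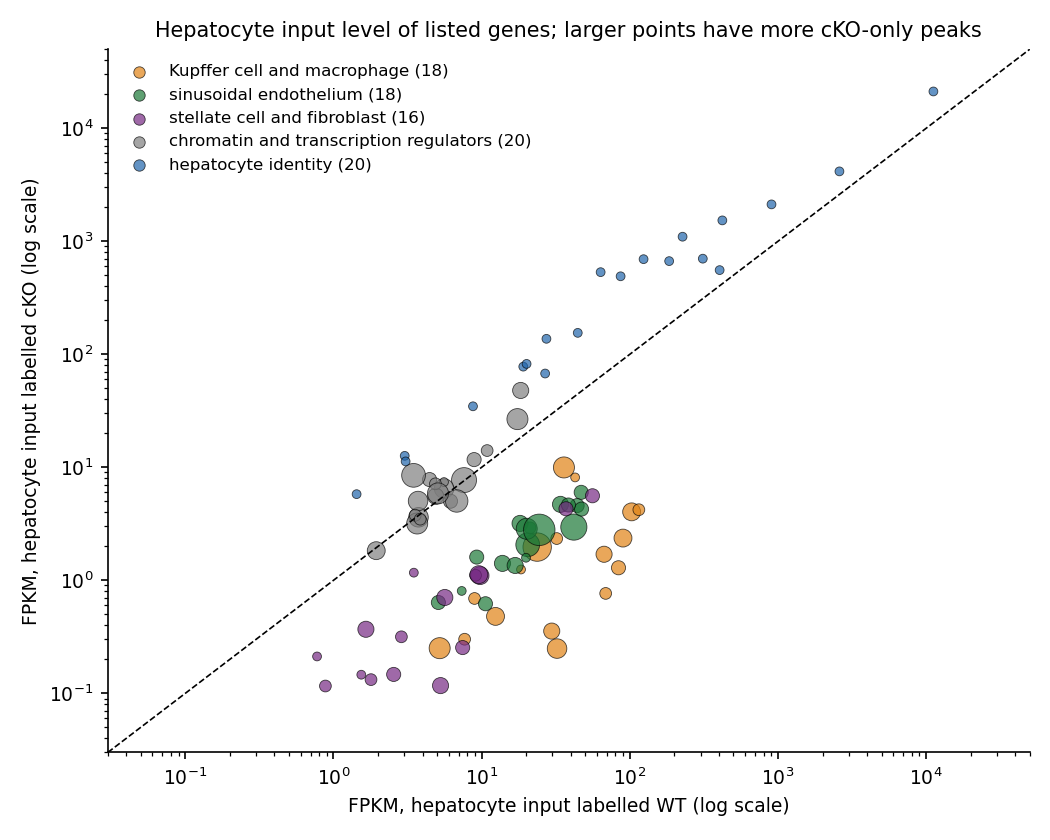
Each point is a listed gene, with its FPKM in the hepatocyte input labelled WT (x axis, log scale) and in that labelled cKO (y axis, log scale), its area growing with its number of cKO-only peaks, and the dashed line marking equal levels. Genes at 0 in either input are left out, and Kupffer cell, endothelial and stellate cell genes lie below the line, chromatin genes near it and hepatocyte identity genes above it.

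Genes with level inputs held 1772 cKO-only peaks in 954 genes within 1.2-fold. Level is judged on the deposited FPKM. Median-ratio size factors were 1.14 for the input labelled cKO and 0.877 for that labelled WT, so scaling would move these genes towards lower in the cKO input. After Noc2l, the highest folds among them were in Eif5b, a translation initiation factor (180-fold, 2.36 FPKM in the input labelled cKO and 2.32 in that labelled WT), Cluap1, a ciliary transport protein (158-fold, 0.929 FPKM in the cKO input and 1.204 in the WT input, within 1.2-fold only once 1 FPKM is added), and Kmt2a (147-fold, 3.18 in the cKO input and 3.67 in the WT input). The Kmt2a peak filled coding exon 21 of 36 (chr9:44826822-44826959). Rabep1, an endosomal fusion factor, followed at 125-fold, and Clip1, a microtubule plus-end protein, at 123-fold. Of these 6 genes, each had at least 2 WT peaks elsewhere in the gene, with 7 each in Eif5b and Rabep1 and 9 in Clip1. Zfp942 (133-fold) and the kinase gene Dstyk (112-fold) had no WT peak.

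Along the transcript, cKO-only peaks had shares close to those of WT-only peaks, and lower shares in long and last exons than the cKO peaks that overlap a WT peak. The shares below are given for cKO-only, then overlapping, then WT-only peaks. Of 10644 cKO-only peaks placed on coding transcripts, the centre fell in the coding sequence for 69.7%, the 3′ UTR for 24.98% and the 5′ UTR for 5.29%. For the cKO peaks that overlap a WT peak these were 69.6%, 27.6% and 2.84%, and for WT-only peaks 68.5%, 25.4% and 6.10%. The last exon held 33.2% of cKO-only peaks (32.3% to 34.1%), 41.2% of overlapping and 32.8% of WT-only peaks. Exons of at least 400 nt held 41.0%, 56.8% and 38.6%, and 14.7%, 20.3% and 16.04% lay within 200 nt of the stop codon. Peaks had been trimmed to exons, and 69.9% of the cKO-only peaks touched an exon border. Peaks of 1 library are not replicates, and these intervals cover counting error only.

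The GGAC core, searched as the letters GGAC on the transcript strand, stood in 55.5% of cKO-only peaks, 71.6% of overlapping and 57.7% of WT-only peaks. Width differs between these classes, and in peaks of 150 to 299 bp the shares were 61.6%, 64.1% and 64.2%. In the central 100 bases it stood in 41.0%, 43.0% and 41.9%. Among cKO-only peaks with a window of the same length 500 nt away on the same transcript, the centre held it in 40.7% and the shifted window in 34.4%. For overlapping peaks the centre held it in 42.9% and the shifted window in 32.9%. GGACT, which contains the core, stood in 23.8%, 37.3% and 25.5% of whole peaks.

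**Figure D4:**
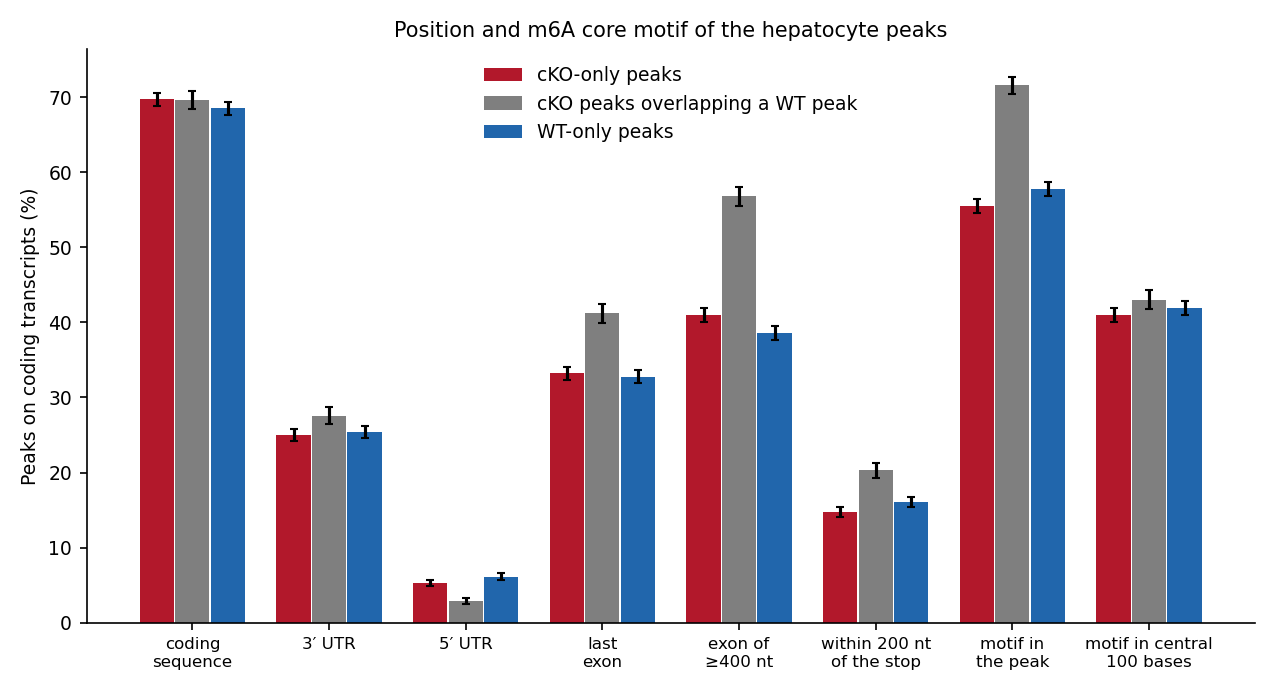
Bars give the share (%) of peaks on coding transcripts with each property, with 95% Wilson intervals, for cKO-only peaks (red), cKO peaks that overlap a WT peak (grey) and WT-only peaks (blue); the motif is the m6A core tetranucleotide. Red and blue bars are close for most properties, while grey bars are higher for exons of at least 400 nt (56.8% against 41.0% and 38.6%) and for the motif in the whole peak.

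The cKO-only peaks were not of 1 kind. Those in genes that were lower by 2-fold or more in the input labelled cKO had GGAC in 66.4%, a median exon of 464 nt and 32.5% of centres in the 3′ UTR. Those in genes that were higher by 2-fold or more had GGAC in 49.5%, a median exon of 161 nt and 18.6% in the 3′ UTR, and 38.4% of them spanned exactly 1 exon, against 24.7% where the gene was lower. The median width was 230 bp where the gene was lower and 138 bp where it was higher, and whole-peak GGAC shares rise with width. In the central 100 bases GGAC stood in 46.0% where the gene was lower and 43.4% where it was higher. Peaks in genes with no WT peak at all lay in the 3′ UTR in 33.4% and in the last exon in 45.8%.

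Liver IP libraries, which the rule did not use, seldom held a peak at these places. A liver peak overlapped 83 and 53 cKO-only peaks (0.743% and 0.474%) in the cKO livers of replicates 2 and 3, against 172 and 82 (1.54% and 0.734%) in the WT livers. The genotypes overlap, and the mean difference of −0.53 percentage points had a two-sided exact permutation p of 0.667 over the 4 libraries, which cannot give a p below 0.333. With liver peaks of a score of at least 40 alone, the difference turned to 0.081 points (p = 0.667, exact permutation test). The cKO peaks that overlap a WT peak were met more often in each liver library, 3.91% and 3.57% in cKO livers and 4.72% and 2.57% in WT livers, and so were WT-only peaks, 2.10% and 1.72% in cKO livers and 2.01% and 0.921% in WT livers. The liver lists are short, with 1624 and 1127 peaks in cKO livers and 2424 and 1052 in WT livers. In all, 294 cKO-only peaks (2.63%) were met by any liver library and 10877 by none.

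Only 4 cKO-only peaks were met in both cKO livers and neither WT liver, and 15 in both WT livers and neither cKO liver. The 4 lie in Pisd, a mitochondrial phospholipid decarboxylase (chr5:32746183-32746382), Slc40a1 (chr1:45909205-45909577), Fgb, the fibrinogen beta chain (chr3:83046002-83046185), and the phosphatase gene Ptp4a1 (chr1:30946038-30946639). The Slc40a1 peak lay in the last exon, was 27.7-fold enriched in cKO hepatocytes and had folds of 9.29 and 4.96 in the cKO livers. Another 8 were met in all 4 livers. Of these the Tnpo2 peak was strongly enriched everywhere, with folds of 1473 and 1027 in cKO livers and 2037 and 2891 in WT livers, and the peak of the translation initiation factor gene Eif4g1 (chr16:20684022-20684181), 106-fold in cKO hepatocytes, had 314 and 159 in cKO livers and 264 and 156 in WT livers. Both are cKO-only in hepatocytes and present in WT liver. Among the 15 were Pygb (38.2-fold in cKO hepatocytes, 5.63 and 2.52 in WT livers), the VEGF receptor Flt1 and Pdk4, a kinase that restrains pyruvate oxidation.

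Whole-liver inputs allow a test of the genes in libraries the rule did not use. Of 1830 genes with cKO-only peaks and no WT peak that could be tested, 107 (5.85%) were higher in cKO livers and 2 lower at a limma adjusted p under 0.05, against 3.71% higher and 1.52% lower over all 10875 genes. Genes with no hepatocyte peak in either list had 6.27% higher and 0.883% lower of 2377 and a median log2 difference of 0.62, a share of higher genes no smaller than that of genes with cKO-only peaks and no WT peak. Among all 5266 tested genes with a cKO-only peak, 169 (3.21%) were higher and 28 (0.532%) lower. The median log2 difference was 0.70 for the first set, 0.44 for the second and 0.42 over all genes, and with median-ratio scaling it was 0.30, 0.0018 and −0.014. That scaling gave 45 higher and 3 lower in the first set, 65 higher and 55 lower in the second and 163 higher and 276 lower over all genes. Without the filter on low values the first set had 1 gene higher and 1 lower. Without any 1 of the 4 livers no gene with a cKO-only peak passed in either direction, with limma on 3 libraries and the lone liver assumed to vary like the others. At an unadjusted p under 0.05, 261 to 520 genes of the first set were higher and 7 to 63 lower in those fits.

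Every list gene with a cKO-only peak that passed in liver was higher in cKO livers. Marco, with its 5 cKO-only peaks, had 44.6 and 40.1 FPKM in cKO livers, against 1.82 and 2.58 FPKM in WT livers. The livers do not overlap, and the log2 difference was 3.77 ± 0.37 (SE, limma adjusted p = 0.0066). Vcam1, an adhesion molecule of activated endothelium, had 22.1 and 19.6 FPKM in cKO livers, against 4.24 and 2.55 in WT livers, a difference of 2.34 (limma adjusted p = 0.0262). Notch1, a receptor of cell fate signals, had 13.1 and 10.9 FPKM in cKO livers, against 1.62 and 2.13 in WT livers (2.17, limma adjusted p = 0.0327). Col4a1 had 30.8 and 31.3 FPKM in cKO livers, against 3.78 and 8.38 in WT livers (2.26, limma adjusted p = 0.0362). With median-ratio scaling these last 3 genes missed the threshold (limma adjusted p of 0.0507 for Vcam1, 0.0604 for Notch1 and 0.0743 for Col4a1), and Marco kept its call. Pygb had 11.8 and 38.1 FPKM in cKO livers, against 1.09 and 1.28 in WT livers (3.36, limma adjusted p = 0.0271). S100a9, a neutrophil calcium-binding protein, had 12.6 and 4.59 FPKM in cKO livers and is listed at 0 in both WT livers.

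Cd5l and C1qb, secreted products of macrophages, did not pass. Cd5l had 57.3 and 71.1 FPKM in cKO livers, against 19.7 and 23.97 in WT livers (1.51, limma adjusted p = 0.0532), and C1qb had 88.1 and 126 FPKM in cKO livers, against 29.5 and 38.9 in WT livers (1.61, limma adjusted p = 0.0522). Of the 19 tested Kupffer cell genes 2 were higher (Marco and Hmox1) and 0 lower, with 10 higher at an unadjusted p under 0.05 (2200 of all 10875 genes) and a median of 1.09. Of the 18 endothelial genes 0 passed in either direction, with 2 higher at an unadjusted p under 0.05 and a median of 0.25. Ptprb, with 15 cKO-only peaks, had 11.9 and 13.0 FPKM in cKO livers, against 15.0 and 10.3 in WT livers, which overlap. Of the 18 stellate cell genes 1 was higher (Dcn, 138 and 199 FPKM in cKO livers, against 57.1 and 51.3 in WT livers). At an unadjusted limma p under 0.05, 9 of the 18 were higher, and their median was 1.12. These medians stand beside 0.42 over all genes, and with median-ratio scaling they were 0.60 for Kupffer cell, −0.19 for endothelial and 0.72 for stellate cell genes, beside −0.014.

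In the pathway lists of the same fit, set beside 3.71% higher and 1.52% lower over all genes, the matrix list had 3 of 24 genes higher in cKO livers by limma (Col4a1, Vcam1 and the basement membrane linker Nid1), the actin list 2 of 16 (the scaffold Iqgap1 and the cytolinker Plec) and the Notch, Wnt and TGF-beta list 2 of 17 (Notch1 and the inhibitor Smad7). The cell cycle list had 1 of 13 higher, the replicative helicase subunit Mcm6, and the glycogen list 4 of 19 (Pygb, Gyg, Pgm1 and Stbd1) with 2 lower (Gys2 and the glucose transporter gene Slc2a2). Of these 14 genes, 9 carried cKO-only peaks and Gyg, Pgm1, Stbd1, Gys2 and Slc2a2 did not. Lower in cKO livers were Scd1 and Fads2 of 19 fatty acid genes, Insig1 of 20 cholesterol genes, Otc of 20 urea cycle genes and Serpina1a of 20 hepatocyte identity genes, none with a cKO-only peak. With limma 0 genes passed among 20 chromatin genes (2 higher at an unadjusted p under 0.05), 16 m6A genes (5 higher), 18 interferon genes (4 higher) and 13 Toll-like receptor genes (1 higher), where 2200 of all 10875 genes were higher. Over all lists 23 genes were called, and no alternative turned the sign of any. With median-ratio scaling 10 of the 23 kept their calls, and of the 16 that were higher these were Marco, Pygb and S100a9. With a pseudocount of 0.1, 13 of the 23 kept their calls, and Dcn, Hmox1, Iqgap1, Plec, Smad7, Gyg, Pgm1, Stbd1, Otc and Scd1 lost theirs. Without the filter on low values, or without any 1 liver, 0 of the 23 kept theirs.

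Among genes with cKO-only peaks and no WT peak, the largest changes in liver were mostly increases. S100a11, a calcium-binding protein with 1 cKO-only peak of 48.3-fold, had 459 and 419 FPKM in cKO livers, against 12.4 and 10.3 in WT livers (log2 difference 5.16 ± 0.32, SE, limma adjusted p = 0.0011). Abcc4, an efflux transporter of organic anions, held 3 and had 35.8 and 25.6 FPKM in cKO livers, against 0.736 and 0.457 in WT livers (4.30, limma adjusted p = 0.0054). Cln6, a membrane protein of the endoplasmic reticulum, had 39.9 and 23.7 FPKM in cKO livers, against 1.36 and 1.04 in WT livers, and Cib3, a calcium- and integrin-binding protein, had 53.5 and 44.1 in cKO livers, against 1.18 and 4.69 in WT livers (limma adjusted p of 0.0093 and 0.0159). Ubd, a ubiquitin-like protein of inflamed tissue, had 23.9 and 36.7 FPKM in cKO livers and 0 and 1.23 in WT livers (limma adjusted p = 0.012). All 5 lay the other way in the hepatocyte inputs, as for Cib3 at 1.21 FPKM in the input labelled cKO and 8.52 in that labelled WT.

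The 2 genes of this kind that fell in liver are hepatocyte genes. Hsd3b5, a steroid dehydrogenase, is listed at 0 in both cKO livers, against 62.2 and 114 FPKM in WT livers, and had 12.1 FPKM in the hepatocyte input labelled cKO and 0.490 in that labelled WT. Saa1, an acute phase protein, had 0 and 2.79 FPKM in cKO livers, against 194 and 46.6 in WT livers (limma adjusted p = 0.0192). Both genes have near-identical family members, so their values are uncertain.

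**Figure D5:**
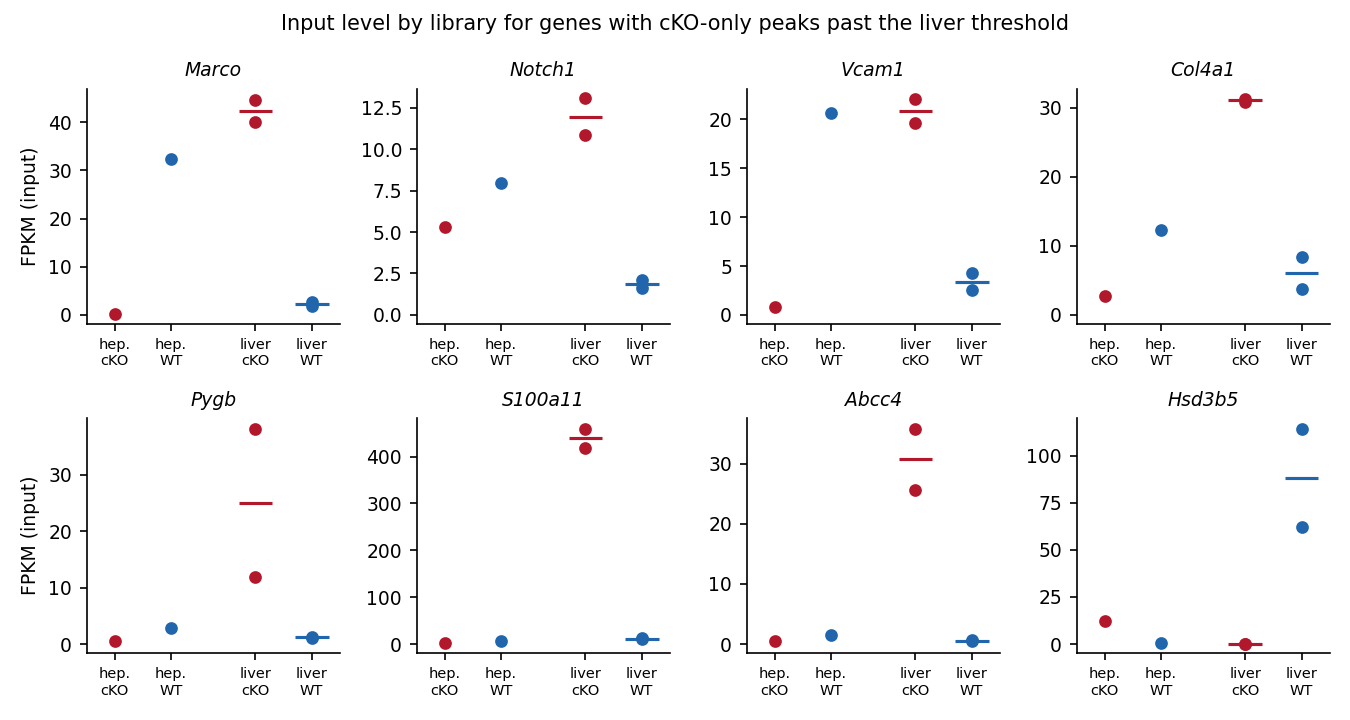
Points give input FPKM in each library for 8 genes with cKO-only peaks that passed the limma threshold in liver, with hepatocyte inputs (1 per genotype) on the left and livers (2 per genotype, line at the mean) on the right, cKO in red and WT in blue. In liver the cKO points lie above the WT points for every gene shown but Hsd3b5, and in hepatocytes they lie below them for every gene but Hsd3b5.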

How the data were processed

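MeRIP-seq of male hepatocytes and livers was used (6 IP and 6 input libraries); 2 female liver RNA-seq libraries were not used here. The paper names the GenSeq m6A kit with NEBNext Ultra II Directional, and the labels a Synaptic Systems antibody with NEBNext Ultra. The authors trimmed reads with cutadapt 1.9.3, aligned them to mm10 with HISAT2 2.0.4 and called peaks with MACS, 1 run per IP library against its input, kept where they overlap exons. The deposited fold enrichment is a ratio of IP over input, the deposited score is −10 log10 p, and the deposited FDR is a percent. Input expression was deposited as FPKM, for which the authors used Cufflinks and Cuffdiff. The authors' count columns are scaled signal, used only for depth (within 0.02, 94.5% to 95.6% of low values fell on whole steps).

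Membership took 1 shared bp. Members, gene lists and terms were chosen with earlier results of these data known. Peaks were placed with GENCODE M21 on GRCm38 (pysam 0.24.0, samtools 1.23.1). Liver inputs were tested with limma 3.58.1 (R 4.3.3, trend) on log2(FPKM + 1), for 10875 genes with 1 entry and a mean of at least 1 FPKM, with Benjamini-Hochberg adjustment at 0.05; this scale understates changes of low genes. Scripts were tested on simulated data. Nothing says that replicates are separate animals, so p-values measure spread between these samples, which may be technical. Named genes are, per list, the 4 with most members; the 10 with most members; the 10 highest folds; members met in both cKO livers only; the 5 largest liver changes each way; Mettl3 and the study's 4 genes; and the members at the edge. The level-input genes, C1qb, C1qa, Chd3, Dcn, Hmox1, Pecam1, Tie1, Cd68, Mpeg1, Eif4g1, Flt1, Pdk4 and the other list genes called in liver were named after their values were seen. Some genes that the rule names are not reported here.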

Additional observations from a re-analysis of the deposited data

Results flagged for a closer look

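The hepatocyte and liver inputs lay on opposite sides for 52 of 90 named genes, with every cKO liver on 1 side of every WT liver, and 15 of these passed limma in liver. The same share over all genes was not counted, and the median liver log2 difference over all genes was itself 0.42. S100a11, Abcc4, Cln6, Cib3, Ubd, Hsd3b5 and Saa1 were named because they passed limma, so the count of 15 is partly fixed by that choice. The values that follow are log2 differences of cKO over WT between the single hepatocyte inputs, on log2(FPKM + 1), and the difference between hepatocytes and liver was not tested. Genes lower in the hepatocyte input labelled cKO and higher in cKO livers were Marco (−4.74), Vcam1 (−3.59), Cib3 (−2.11), Col4a1 (−1.83), Pygb (−1.32), S100a9 (−1.27), S100a11 (−1.25), Ubd (−1.24), Abcc4 (−0.79), Notch1 (−0.51) and Cln6 (−0.51). Genes higher in the hepatocyte input labelled cKO and lower in cKO livers were Hsd3b5 (3.14) and Saa1 (0.71). So were Egfr (2.24) and Gys2 (2.03), 2 of the study's genes without a cKO-only peak. Fasn (3.42) and Mlxipl (2.37), also study genes, lay the same way but missed the liver threshold (limma adjusted p of 0.0914 and 0.0547). The paper reports Gys2, Fasn, Mlxipl and Egfr as lower in cKO hepatocytes, while the hepatocyte input labelled cKO held more of each. Why these differ was not tested.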

How the results depend on the processing

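Counting only peaks in genes with no WT peak left 4066 of the 11171 cKO-only peaks (4 of them in genes that share a cKO peak with a WT peak of another gene), and an FDR of at most 5% left 2. The other definitions (50% coverage, a WT peak within 100 bp, a score of at least 100) stayed within 1.5 times. Of genes with a cKO-only peak, 835 were lower by 2-fold or more and 787 higher in hepatocytes. Restricted to genes with no WT peak these were 550 and 142, and median-ratio scaling, chosen after seeing the data, gave 400 higher. A pseudocount of 0.1 gave 1018 lower and 1140 higher. In liver, the fit without a filter on low values called 2 genes higher and 14 lower over all genes, 1 and 1 among genes with a cKO-only peak, and 1 and 1 among those with no WT peak. Median-ratio scaling called 163 and 276, 65 and 55, and 45 higher in the same 3 sets. A pseudocount of 0.1 left 1 of the 2 lower genes with no WT peak. Without any 1 liver, 0 genes were called higher and 0 to 2 lower over all genes, and 0 to 0 in the other 2 sets. The replicate block (numbers 2 and 3 of the labels) called 776 higher and 282 lower over all genes, 339 and 55 with a cKO-only peak, and 193 higher with no WT peak. The differences of replicate 2 minus replicate 3 in cKO livers and in WT livers correlated at only 0.126 over genes. With 2 pairs, the numbers are not taken as a pairing. Of the genes named by rule, all 15 called in liver lost the call without any 1 liver, 13 without the filter, 3 with median-ratio scaling and 1 with a pseudocount of 0.1. Of the 23 called list genes, 13 kept the call at a pseudocount of 0.1, 10 with median-ratio scaling and 0 without the filter or any 1 liver. The difference in liver overlap (−0.53 points) ran from −0.93 to −0.13 without 1 library, and was 0.081 with liver scores of at least 40. GGAC stood in 41.0% at the centre, and in 52.1% of peaks in genes with level inputs, where 71.2% lay in the coding sequence and 23.2% in the 3′ UTR. The 1 library per genotype in hepatocytes limits every peak comparison, since peak calls of a single IP have no replicate check.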
